A study of Homo sapiens with 32 samples.

Results

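The data described here are crosslinks of export factors inside first introns longer than 10000 nt, the stretches of pre-mRNA between the first and second exon of long genes. Members were taken from the canonical transcript of each protein-coding gene on GRCh37 (the Ensembl canonical transcript, or else the transcript with the longest coding sequence), with all annotated exons on the strand and 100 nt at each end left out. This gave 5504 first introns of 185199 introns of these transcripts. Of the 5504, 5483 kept some sequence after the exons were removed, 227.9 Mb in all, and 5312 kept sequence in both distance windows used below. The median length was 25253.5 nt. The splice site after exon 1 began with GT in 99.3% of them, 3766 held an annotated exon of another isoform or gene, and 1314 were overlapped by another gene on the same strand. Later introns over 10000 nt, of which there were 15881, served as the comparison.

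The study mapped contacts of mRNA export factors with RNA by iCLIP, in which UV light crosslinks protein to RNA in cells, the complexes are immunoprecipitated, and the end of each cDNA marks the crosslinked base. The cells, named FlpIn HEK293T in the sample labels and FlpIn-293 in the protocols, are of a long-established line from human embryonic kidney that takes up transgenes at a recombination site, and every group was immunoprecipitated with the same anti-FLAG antibody. Stable lines carried inducible FLAG-tagged Alyref, FLAG-tagged Chtop or FLAG-tagged Nxf1, or FLAG only for the Control. Cells were induced with tetracycline over 48 h. The dose was 10 ng/mL in the Alyref line and also in the Chtop line, the Nxf1 line received 5 ng/mL, and the labels do not state an induction for the Control. The 32 sequencing runs, 8 per group, belong to 12 libraries, 3 in each of the 4 groups, and each library was counted as 1 replicate. Nothing in the labels says that the 3 libraries of a group came from separate cultures, so p-values measure only the spread between libraries.

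Introns are transcribed and then excised, so contacts inside them record protein on RNA that is still nascent or not yet spliced. Alyref is an adaptor of TREX, the complex that couples transcription and processing to nuclear export, and it is known to bind the cap-binding complex at the start of the transcript as well as the exon junction complex. Chtop is another TREX subunit, and Nxf1 is the receptor that carries the mRNA through the nuclear pore. The first intron of human genes commonly starts inside a CpG island and is the longest intron of many genes.

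Some crosslinked bases recurred in almost every library, the Control included, and their sequences come first because they touch the levels given below. The 4 bases with the highest mean level, scaled to library size, are shown on hg19 in a 61-base window in the direction of the transcript, with the crosslinked base in capitals. They lie in the first introns of ARHGAP10 (a GTPase-activating protein, chr4:148740758-148740818, plus strand, 87182 nt from the 5′ splice site), PID1 (an adaptor with a phosphotyrosine interaction domain, chr2:230045524-230045584, minus strand, 90176 nt) and PDE3A (a cyclic nucleotide phosphodiesterase, plus strand, chr12:20704327-20704387 at 181179 nt and chr12:20704350-20704410 at 181202 nt).
ARHGAP10: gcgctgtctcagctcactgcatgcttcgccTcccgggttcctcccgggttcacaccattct
PID1: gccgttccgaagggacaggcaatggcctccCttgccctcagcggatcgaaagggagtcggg
PDE3A, first base: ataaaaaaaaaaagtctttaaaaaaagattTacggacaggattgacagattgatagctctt
PDE3A, second base: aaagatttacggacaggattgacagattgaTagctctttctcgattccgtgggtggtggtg

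At the ARHGAP10 base the tags were 4, 4 and 4 in Alyref replicates 1 to 3, 4, 3 and 4 in Chtop, 4, 4 and 3 in Nxf1 and 2, 3 and 3 in the Control. At the PID1 base they were 1, 4 and 4 in Alyref, 2, 3 and 3 in Chtop, 1, 3 and 4 in Nxf1 and 2, 3 and 3 in the Control. These counts hardly followed depth, since the libraries differed from 7017 to 631704 tags. The 25 bases downstream of the ARHGAP10 base and of the PID1 base had 1 exact copy in the genome. Those of the first PDE3A base had 5 copies and those of the second had 3, in each case with 2 of them on the unplaced sequence GL000220.1. No annotation of repeats or ribosomal RNA was at hand. Whether these bases lie in such sequence was therefore not tested. Over all members the 12 libraries held tags at 161378 positions, of which 98.9% were found in a single library and 183 in 6 or more. These 183 positions took 0.517% to 8.92% of a library's tags in members, with the highest shares in the shallow replicate 1 of Nxf1, Chtop and Alyref, and without them the differences in share, gradient, gradient excess and density given below kept their directions.

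The next set of sequences shows the 100 nt with most tags in HOXA3. For EFNA5 and ADGRL2, the 2 members with the most Chtop tags in their first 1000 nt, it shows the 100 nt with most tags there. HOXA3 was picked because a test on tags per intron, given further on, called it higher in Chtop. That call depended on the filter, the scaling and Chtop replicate 3, so it is a description. Every base crosslinked in at least 1 library is in capitals. HOXA3 encodes a homeobox transcription factor (chr7:27183829-27183928, minus strand, 7979 to 8078 nt from the 5′ splice site). EFNA5 encodes ephrin-A5, a membrane-anchored ligand of Eph receptors (chr5:107005190-107005289, minus strand, 901 to 1000 nt), and ADGRL2 encodes an adhesion G protein-coupled receptor of the latrophilin family (chr1:82267179-82267278, plus strand, 426 to 525 nt).
HOXA3: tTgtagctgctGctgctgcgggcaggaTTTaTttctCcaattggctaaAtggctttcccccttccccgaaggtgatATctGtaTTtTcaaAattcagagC
EFNA5: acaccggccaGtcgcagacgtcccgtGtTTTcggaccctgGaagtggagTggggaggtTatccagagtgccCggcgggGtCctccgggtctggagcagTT
ADGRL2: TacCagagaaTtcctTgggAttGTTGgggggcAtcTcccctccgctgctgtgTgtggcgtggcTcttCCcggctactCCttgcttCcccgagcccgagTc

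The windows near the 5′ splice site of EFNA5 and ADGRL2 were 65.0% and 62.0% G and C, against 46.0% in the deep window of HOXA3. Uracil made up 56.3% of the crosslinked positions in HOXA3, 53.8% in EFNA5 and 47.4% in ADGRL2. The windows were chosen for their tags, so their counts are a description. In HOXA3 the 18 tags were 0, 7 and 7 in Chtop, 0, 2 and 1 in Alyref, 0, 1 and 0 in Nxf1 and none in the Control.

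Depth set the precision of everything that follows. In replicates 1 to 3 the libraries had 81307, 631704 and 603291 tags (Alyref), 47052, 538844 and 429573 (Chtop), 8134, 119191 and 179346 (Nxf1) or 7017, 46628 and 36978 (Control). Members took 3011, 43706 and 45413 of these in Alyref, 1802, 27068 and 9872 in Chtop, 426, 9926 and 17175 in Nxf1 and 631, 5064 and 3381 in the Control. At least 1 tag fell in 5095 of the 5504 members. The share of members with a tag was 85.4% in the 3 Alyref libraries together, 79.1% in Chtop, 73.4% in Nxf1 and 49.3% in the Control, in the order of the summed depths. The intervals below are for counting error alone, and lower densities in a library cannot be split into less intron RNA and fewer contacts per RNA.

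The share of a library's tags in long first introns was lower for Chtop and Alyref than for the Control. It was 3.70%, 6.92% and 7.53% in Alyref, 3.83%, 5.02% and 2.30% in Chtop, 5.24%, 8.33% and 9.58% in Nxf1 and 8.99%, 10.9% and 9.14% in the Control. The 95% Wilson interval was widest in Control replicate 1, from 8.35% to 9.68%, which overlapped that of Control replicate 3. The group means with their SD over n = 3 libraries were 6.05% ± 2.05 in Alyref, 3.72% ± 1.37 in Chtop, 7.71% ± 2.23 in Nxf1 and 9.67% ± 1.04 in the Control. Every Alyref and Chtop library lay below every Control library, with mean differences of -3.62 and -5.95 percentage points, while Nxf1 overlapped the Control. The exact permutation p was 0.1 for both, which is the smallest that 3 libraries against 3 allow, and 0.214 after Benjamini-Hochberg adjustment over 15 comparisons. Taken over intron tags only, members held 22.0% ± 3.15 in Alyref, 20.8% ± 2.21 in Chtop, 25.4% ± 1.08 in Nxf1 and 25.5% ± 0.862 in the Control (mean and SD, n = 3 libraries).

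Each replicate number held a library of every group. The numbers were not used as pairs, so differences between same-numbered libraries are a description. In replicates 1 to 3 the share of Chtop minus that of the Control was -5.16, -5.84 and -6.85 percentage points. For Alyref it was -5.29, -3.94 and -1.62. For Nxf1 it was -3.76, -2.53 and, in replicate 3, 0.43. Among the factors, Chtop differed from the mean of the others by -3.16 points (two-sided exact permutation p = 0.0714, adjusted 0.357).

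**Figure D1:**
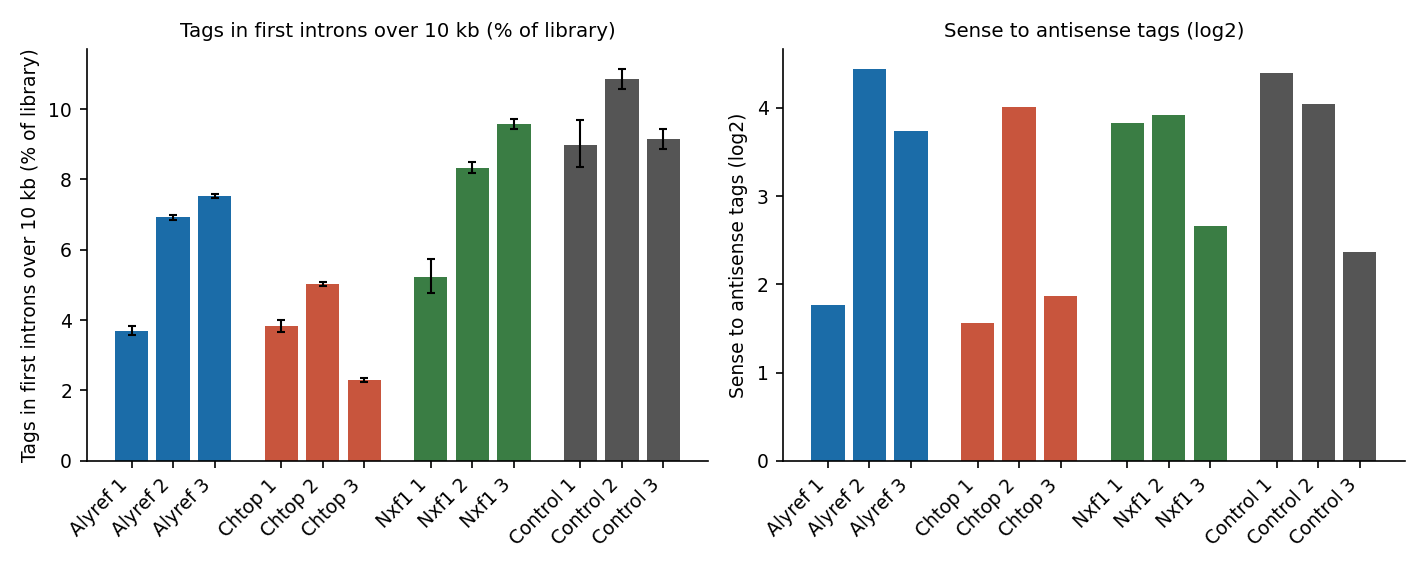
Left, percentage of each library's tags that lay in first introns over 10000 nt, with 95% Wilson intervals; right, log2 ratio of tags on the sense strand to tags on the antisense strand in the same introns, for the 12 libraries coloured by group. The Control libraries sit between 8.99% and 10.9%, above all Alyref and Chtop libraries, and the strand ratio is lowest in Alyref replicate 1, Chtop replicate 1 and Chtop replicate 3, at 1.56 to 1.86.

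The strand ratio is a check of each library, because antisense RNA should be rare in most introns. On the log2 scale, at bases whose opposite strand carries no annotated gene, the ratio of sense to antisense tags in members was 1.76, 4.44 and 3.74 in Alyref, 1.56, 4.01 and 1.86 in Chtop, 3.83, 3.92 and 2.66 in Nxf1 and 4.39, 4.04 and 2.36 in the Control. Alyref replicate 1 and Chtop replicates 1 and 3 had the lowest ratios, followed by Control replicate 3 with 2.36 and Nxf1 replicate 3 with 2.66. The 3 lowest libraries also had the lowest shares of their tags in members. Sense tags in members enter both measures, so a low share by itself lowers the ratio. The share, gradient, gradient excess, first to later density and strand ratio are also compared without the 3 lowest libraries. This alternative was chosen after the values were seen, and it keeps every library of Nxf1 and the Control. Other results, such as the profile by distance, the classes of introns, the lists and the edgeR calls, were not retaken without all 3. Without them the share differed from the Control by -2.44 points for Alyref (2 libraries) and by -4.64 points for Chtop (1 library).

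**Figure D2:**
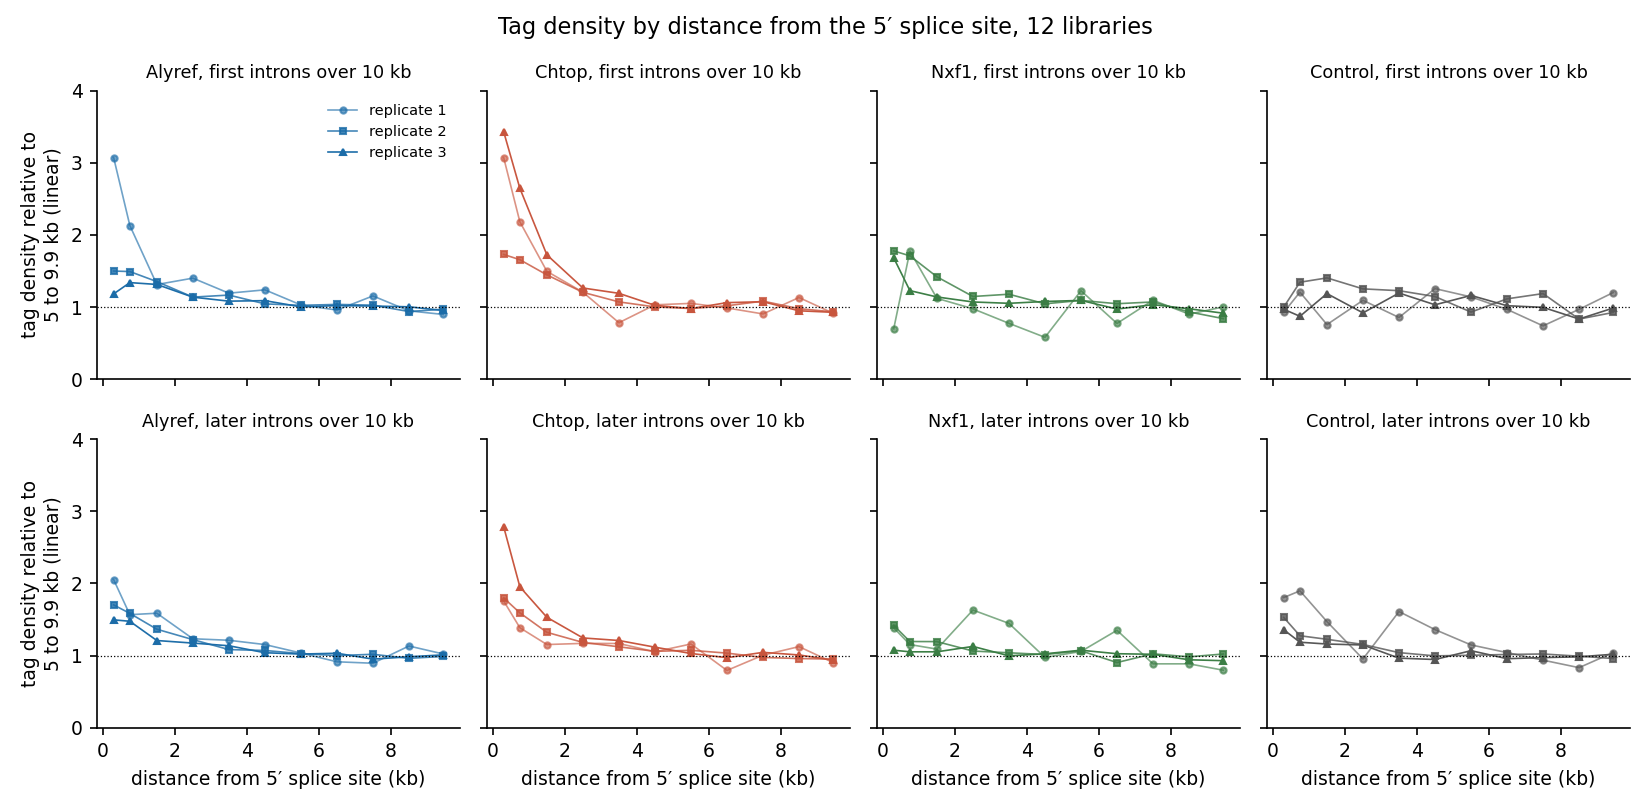
Tag density by distance from the 5′ splice site, divided by the density between 5000 and 9900 nt of the same library (linear scale), for first introns over 10000 nt (top) and later introns over 10000 nt (bottom). Each line is 1 library, with circles, squares and triangles for replicates 1, 2 and 3. In first introns the 3 Chtop libraries rise toward the splice site to 1.73 to 3.43 times the far density, while the 3 Control libraries stay between 0.927 and 1.00 in the first bin.

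Within long first introns, density rose toward the 5′ splice site in Alyref and Chtop and in Nxf1 replicates 2 and 3. Control density stayed flat. Between 100 and 500 nt from the splice site the density was 2.74-fold ± 0.896 (SD, n = 3) that of the far window, 5000 to 9900 nt, in Chtop, 1.92-fold ± 1.01 (SD, n = 3) in Alyref and 1.39-fold ± 0.597 (SD, n = 3) in Nxf1, against 0.966-fold ± 0.0369 (SD, n = 3) in the Control. In replicates 1 to 3 that fold was 3.07, 1.50 and 1.18 in Alyref and 0.70, 1.78 and 1.68 in Nxf1. Nxf1 replicate 1 had only 4 tags there. From 500 to 1000 nt the mean folds were 2.16 in Chtop, 1.65 in Alyref, 1.57 in Nxf1 and 1.14 in the Control. They were 1.56, 1.33, 1.23 and 1.12 from 1000 to 2000 nt. The excess was thus concentrated in the first 2000 nt. In CPM per kb (CPM, tags per 1000000 tags of the library), the density of the first bin was 0.551 in Alyref, 0.507 in Chtop, 0.681 in Nxf1 and 0.478 in the Control, so the groups lay closer together near the splice site than deeper in the intron.

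A single number per library, the 5′ gradient, was taken as the log2 ratio of density between 100 and 1000 nt to density between 5000 and 9900 nt. It rested on 185, 1603 and 1369 near tags in Alyref, 105, 1124 and 755 in Chtop, 17, 464 and 617 in Nxf1 and 16, 136 and 71 in the Control. The gradient was 1.35, 0.58 and 0.35 in Alyref, 1.37, 0.76 and 1.58 in Chtop, 0.41, 0.80 and 0.51 in Nxf1 and 0.15, 0.26 and -0.12 in the Control. Every library of every factor lay above every Control library, and Alyref replicate 1 lay far above the other 2 Alyref libraries. Against the Control, Alyref was higher by 0.66, Chtop by 1.14 and Nxf1 by 0.48, each with an exact permutation p of 0.1, the smallest possible here, and 0.214 after Benjamini-Hochberg adjustment. Chtop exceeded the other factors by 0.57 (two-sided exact permutation p = 0.0714, adjusted 0.357). In 3 of 3 libraries it lay above the mean of the same-numbered libraries of the other factors. The groups overlapped, since Chtop replicate 2 lay below Nxf1 replicate 2 and Alyref replicate 1.

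Since every factor library lay above every Control library, the sign of the differences between same-numbered libraries was fixed, and only their sizes are described. Within replicates 1, 2 and 3 the gradient exceeded that of the Control by 1.21, 0.50 and 1.70 for Chtop, by 1.20, 0.32 and 0.47 for Alyref and by 0.26, 0.54 and 0.63 for Nxf1. Without the 3 libraries of low strand ratio the differences were 0.37 for Alyref (2 libraries, exact permutation p = 0.2) and 0.66 for Chtop (1 library, exact permutation p = 0.25, the smallest that 1 library against 3 allows), and the excess of Chtop over the other factors was 0.23. Within Alyref and Chtop the libraries of low strand ratio thus had the steepest gradients, and the part of the strand ratio in the result was not tested. On the antisense strand of the same introns, the density also rose toward the splice site, with a gradient of 1.28 ± 0.50 (SD, n = 3) in Alyref, 1.65 ± 0.47 (SD, n = 3) in Chtop, 2.24 ± 1.27 (SD, n = 3) in Nxf1 and 1.77 in the Control, where the 3 libraries ran from 0.75 to 2.94. Few antisense tags lay behind some of these values, with 4 near and 3 far in Control replicate 1 and 7 near and 4 far in Nxf1 replicate 1. After the antisense density was subtracted, the sense gradient was 0.72 in Alyref, 1.01 in Chtop, 0.25 in Nxf1 and -0.29 in the Control.

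**Figure D3:**
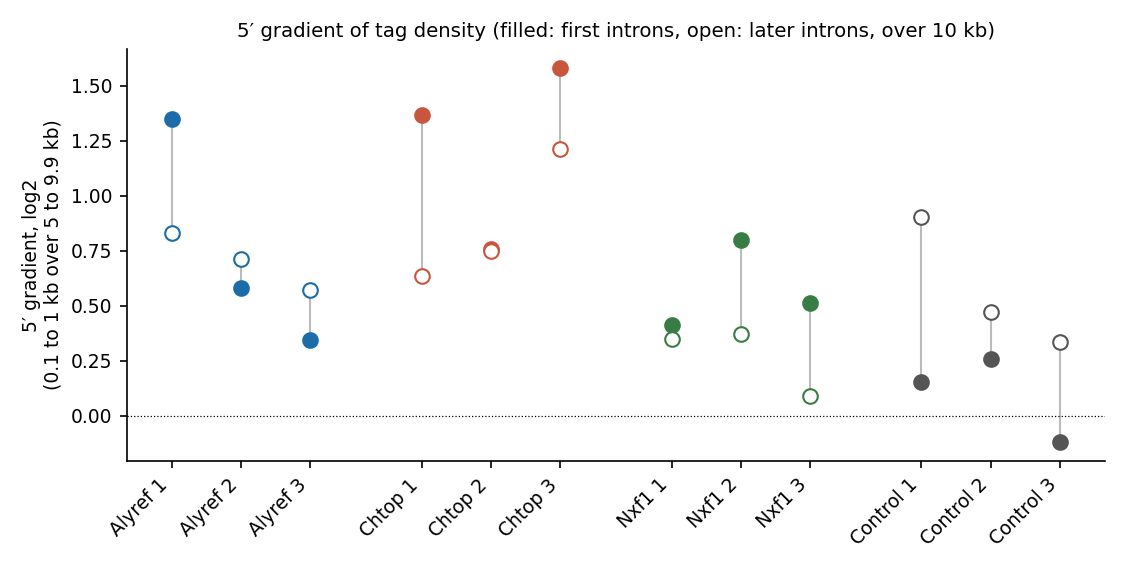
5′ gradient of tag density, the log2 ratio of density from 100 to 1000 nt to density from 5000 to 9900 nt, for each library in first introns (filled) and later introns (open) over 10000 nt. The filled points of the Control lie below its open points in all 3 libraries, and those of Chtop and Nxf1 lie above.

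Later introns over 10000 nt showed how far the gradient was particular to the first intron. Their gradient was 0.83, 0.71 and 0.57 in Alyref, 0.63, 0.75 and 1.21 in Chtop, 0.35, 0.37 and 0.088 in Nxf1 and 0.90, 0.47 and 0.34 in the Control. Over the 12 libraries the first introns exceeded the later ones by 0.064 on average, higher in 7 of 12, which does not pass (exact sign-flip permutation p = 0.623). The groups differed in direction. The excess of first over later introns was 0.52, -0.13 and -0.22 in Alyref, 0.73, 0.0055 and 0.37 in Chtop, 0.066, 0.43 and 0.43 in Nxf1 and -0.75, -0.21 and -0.46 in the Control. All libraries of Chtop and Nxf1 were above 0, Chtop replicate 2 barely so, and all Control libraries below it, so the factors exceeded the Control by 0.84 and 0.78 (exact permutation p = 0.1 for each, the smallest possible, adjusted 0.214). Alyref overlapped the Control, with a difference of 0.53 (exact permutation p = 0.2, adjusted 0.3). At single libraries this split depended on the setting. Without the positions found in 6 or more libraries the excess of Chtop replicate 2 was -0.0087. At uracil bases its gradient was 0.71 in first and 0.75 in later introns. With antisense density subtracted, the first and later gradients were 0.62 and 0.80 in Chtop replicate 1, 0.66 and 0.85 in Chtop replicate 2 and -0.28 and 0.44 in Nxf1 replicate 1. Without the 3 libraries of low strand ratio the mean differences from the Control were 0.48 for Chtop, 0.78 for Nxf1, which kept all its libraries, and 0.30 for Alyref.

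Long first introns carried more tags per kb than later ones of the same genes in every library. The comparison used 3199 genes with both, holding 9411 later introns. The log2 ratio of first to later density was 0.38, 0.54 and 0.52 in Alyref, 0.40, 0.54 and 0.35 in Chtop, 0.56, 0.77 and 0.67 in Nxf1 and 0.74, 0.63 and 0.51 in the Control. The mean over libraries was 0.55, above 0 in 12 of 12, with an exact sign-flip permutation p of 0.000488, the smallest that 12 libraries can give. The Control showed it as much as the factors did, with 0.62 ± 0.11 (SD, n = 3) against 0.48 ± 0.09 (SD, n = 3) in Alyref, 0.43 ± 0.10 (SD, n = 3) in Chtop and 0.67 ± 0.11 (SD, n = 3) in Nxf1. Nxf1 exceeded the other factors by 0.21 with no overlap (exact permutation p = 0.0238, the smallest possible), which did not pass after adjustment (0.357), and by 0.14 without the 3 libraries of low strand ratio. Without the positions found in 6 or more libraries Nxf1 replicate 1 fell from 0.56 to 0.37, the groups overlapped, and the difference was 0.17 (exact permutation p = 0.131, adjusted 0.491).

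**Figure D4:**
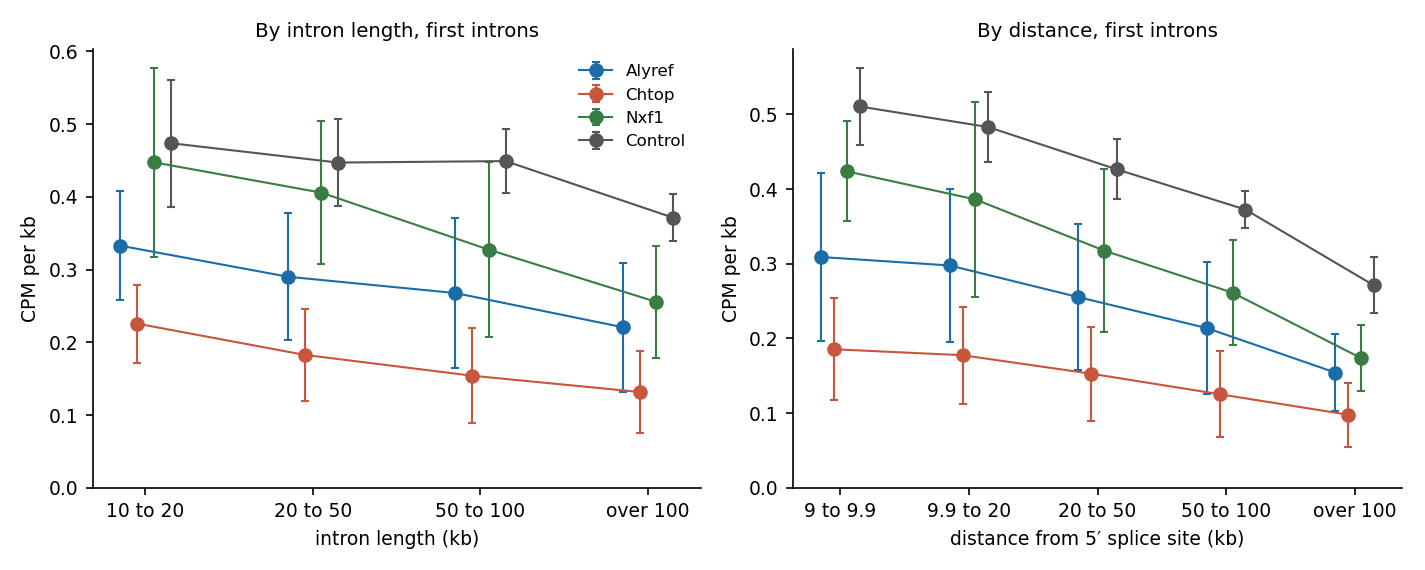
Density of tags (CPM per kb) in first introns, by length of the intron (left) and by distance from the 5′ splice site (right). Points are means and bars the SD of 3 libraries per group; the means fall from the shortest to the longest class in each factor, and Chtop lies lowest and the Control highest in every class plotted, the distances starting at 9000 nt.

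Density fell with the length of the first intron. In the 2145 introns of 10000 to 20000 nt, the mean density was 0.333 CPM per kb in Alyref, 0.226 in Chtop, 0.448 in Nxf1 and 0.474 in the Control. In the 472 introns over 100000 nt it was 0.221, 0.132, 0.256 and 0.371 in the same order. The fall was thus present in all 4 groups, and its relation to the expression of the genes was not tested. By distance, bases more than 100000 nt from the splice site had 0.476 of the far-window density in Alyref, 0.484 in Chtop, 0.374 in Nxf1 and 0.547 in the Control. At the other end of the intron, the log2 ratio of the 100 to 1000 nt before the 3′ splice site to the stretch 5000 to 9900 nt before it was -0.35 ± 0.16 (SD, n = 3) in Alyref, 0.089 ± 0.19 (SD, n = 3) in Chtop, -1.05 ± 1.39 (SD, n = 3) in Nxf1 and -0.56 ± 0.41 (SD, n = 3) in the Control. No rise toward the 3′ splice site was therefore seen beyond the spread in any group.

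Base composition changed along the same distance. The window from 100 to 1000 nt of first introns was 51.8% G and C with a ratio of observed to expected CpG of 0.581, against 42.7% and 0.247 in the far window. In later introns the near and far windows were 40.0% and 40.7% G and C. Uracil, the base that UV light crosslinks most readily, fell from 30.5% of bases in the far window to 26.0% in the near window of first introns. Among crosslinked bases uracil was 63.6% far and 53.7% near in Alyref, 60.8% and 50.3% in Chtop, 58.1% and 47.6% in Nxf1 and 62.2% and 44.9% in the Control. Counting only uracil bases and the tags at them left the gradients at 0.74 in Alyref, 1.18 in Chtop, 0.54 in Nxf1 and -0.13 in the Control.

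The gradient was also taken by the G and C content of the near window. Members were divided by it into 3 classes of like size, with mean contents of 40.5%, 51.8% and 63.4%. The Chtop gradient was 1.26, 1.42 and 1.11 from the lowest to the highest class and the Alyref gradient 0.80, 0.98 and 0.57, without an order. The Nxf1 gradient was -0.065, 0.59 and 0.91, and the Control gradient -0.12, -0.018 and 0.32. In the lowest class the SD over 3 libraries was 0.84 for Nxf1 and 0.89 for the Control. From the lowest to the highest class the gradient went from -0.98 to 1.25, from 0.66 to 0.73 and from 0.12 to 0.74 in Nxf1 replicates 1 to 3, with only 1 near tag behind the first of these values. These orders were not tested.

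Single introns followed the pooled gradient of their group to different degrees. With at least 10 tags of a group in the pair of windows, 328 members could be judged for Alyref, and 175 of them (53.4%) were denser near the splice site, with a median gradient of 0.38. For Chtop it was 41 of 60 (68.3%), with a median of 1.28. For Nxf1 it was 4 of 22 (18.2%), with a median of -0.37, although the pooled Nxf1 gradient was above 0. Members reach 10 tags through whichever window is full, so these counts are a description. In later introns the near window was denser in 66.4% of 497 introns for Alyref and 66.7% of 90 for Chtop.

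The near tags of Chtop were spread over many introns, and the 3 with the most are given here. The first 1000 nt of EFNA5 held 1, 14 and 32 tags in Chtop, 0, 7 and 0 in Alyref, 0, 0 and 2 in Nxf1 and none in the Control. That of ADGRL2 held 0, 16 and 20 in Chtop, 0, 14 and 5 in Alyref, 1, 1 and 0 in Nxf1 and none in the Control. FBXL14, which encodes an F-box protein of ubiquitin ligases, held 1, 9 and 15 in Chtop, 0, 2 and 4 in Alyref, 0, 4 and 0 in Nxf1 and none in the Control. These introns were picked after their values were seen, and no test was made on them. EFNA5 gave 2.37% and ADGRL2 1.81% of the 1984 near tags of Chtop, and without both the gradient over all members was 1.19 in Chtop, 0.75 in Alyref, 0.55 in Nxf1 and 0.11 in the Control.

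Tags per intron were compared between groups with edgeR in a fit over all introns. Only 278 of the 185199 introns passed the filter on low counts, 122 of them members (2.22% of members), and an intron can pass through the group in which it is high. The 2 members called below did so. They reached the level of the filter in every Chtop library and in too few others to pass without Chtop. Higher in Chtop than in the Control were 2 members (1.64% of the 122), against a background of 3.24% of the 278 introns. Lower in Alyref than in Chtop were 2 members, the same ones, against 2.16% of all introns tested, and higher in Chtop than in Nxf1 was 1 member, against 1.8%. For Alyref against Control, Nxf1 against Control and Alyref against Nxf1 the edgeR quasi-likelihood test called 0 members against a background of 0%, with 2, 4 and 2 members at an unadjusted p under 0.05, and DESeq2 called 0 as well. The shares called among long first introns were not above those among all introns. The median log2 difference over the 122 members was between -0.079 and 0.081 in the 6 comparisons, against 0.0050 to 0.10 over all 278.

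The first called intron was that of HOXA3 (ENSG00000105997, chr7:27179806-27191906, minus strand), 12101 nt long. It held 6, 98 and 68 tags in Chtop, 3, 35 and 29 in Alyref, 0, 8 and 6 in Nxf1 and 1, 3 and 0 in the Control, at 246 positions. The median tag lay 7274 nt from the 5′ splice site, and 6.23% of tags lay in the first 1000 nt. Chtop was higher than the Control by 3.74 ± 0.75 (SE) on the log2 scale (edgeR with Benjamini-Hochberg adjustment, adjusted p = 0.00918) and higher than Nxf1 by 3.18 ± 0.62 (adjusted p = 0.0046). Alyref was lower than Chtop by 2.86 ± 0.55 (edgeR, adjusted p = 0.00369). All of these tags also lay inside the spans of other annotated genes on that strand, HOXA5 and HOXA6 among them, so they cannot be assigned to HOXA3 alone.

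The second was the first intron of AK3, which encodes the adenylate kinase of the mitochondrial matrix (ENSG00000147853, chr9:4722626-4740936, minus strand), 18311 nt long, with no other gene and no annotated exon inside. It held 5, 58 and 68 tags in Chtop, 1, 30 and 45 in Alyref, 2, 10 and 9 in Nxf1 and 0, 4 and 0 in the Control, with a median distance of 12358 nt. Chtop was higher than the Control by 3.60 ± 0.83 (SE) on the log2 scale (edgeR, adjusted p = 0.0166), and Alyref was lower than Chtop by 2.63 ± 0.59 (edgeR, adjusted p = 0.0114). The difference between Chtop and Nxf1, 2.28 ± 0.66, did not pass (edgeR, adjusted p = 0.0893). Neither intron had its tags at recurrent bases. Both passed the filter through Chtop, the group in which they were high, so their p-values are a description. The calls of both rested on Chtop replicate 3, which had a low strand ratio: without it 0 members were called in any Chtop comparison. The calls against the Control were also lost without Control replicate 3 (edgeR, adjusted p of 0.0568 and 0.06), those between Alyref and Chtop without Alyref replicate 2 or 3, and that of HOXA3 between Chtop and Nxf1 without Nxf1 replicate 3. With no filter on low counts none of the calls held. They also rested on the scaling, since TMM factors ran from 0.570 to 2.17, and with all tags of a library as its size Chtop against the Control was 1.78 for HOXA3 and 1.59 for AK3 on the log2 scale and Alyref against Chtop -1.71 and -1.33, none of them called.

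**Figure D5:**
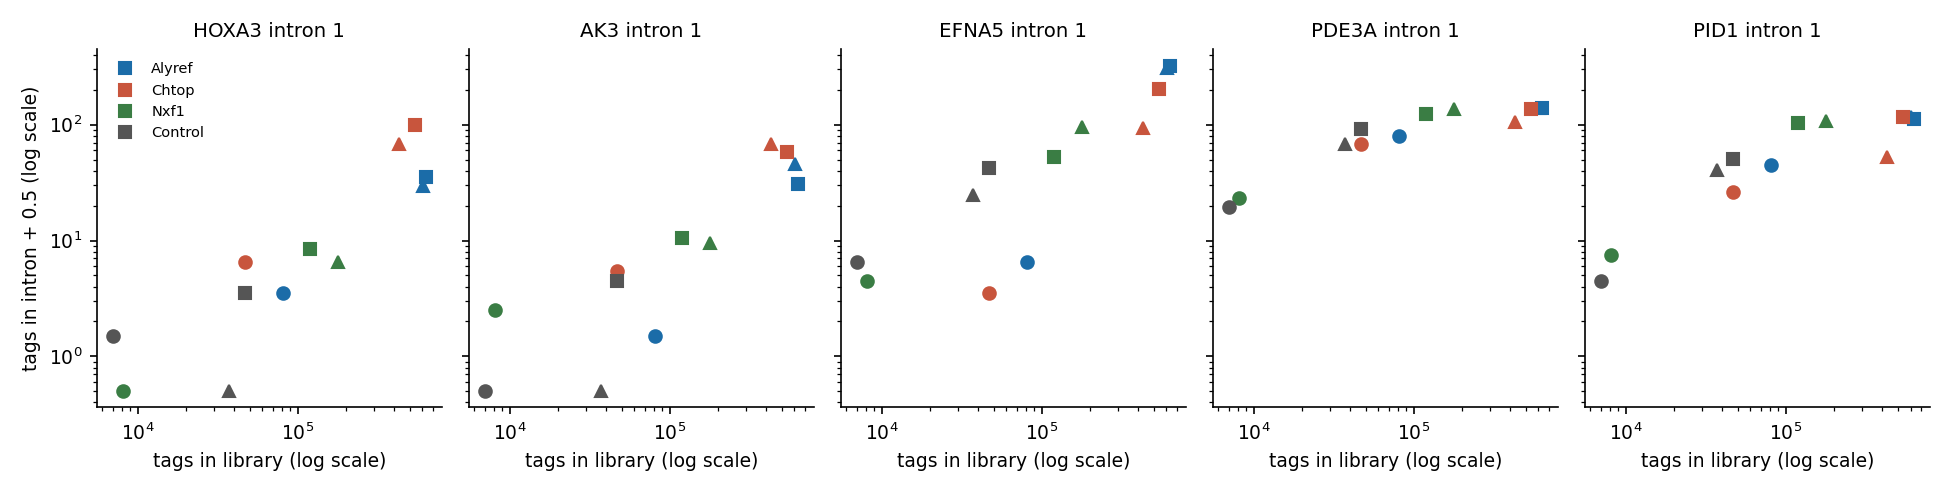
Tags in the first introns of HOXA3, AK3, EFNA5, PDE3A and PID1 (tags + 0.5, log scale) against all tags of the library (log scale), with circles, squares and triangles for replicates 1, 2 and 3 and colours for the groups. In EFNA5 Chtop replicate 1 holds 3 tags and Control replicate 2, of like depth, 42, in HOXA3 and AK3 the Chtop libraries lie above others of like depth, and in PDE3A the libraries of 36978 to 631704 tags all hold 67 to 139.

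By level, the 10 highest members over the mean of the 4 groups took 4.68 to 14.2 CPM per kb. They were EYA4 (a transcriptional coactivator with phosphatase activity) with 14.2, HOXA3 with 11.6, AKT2 (a kinase of insulin signalling) with 10.1, ALG8 (a glucosyltransferase of N-glycan assembly) with 6.86, PDE3A with 6.52, HOXB3 with 5.75, ZNF337 with 5.24, the readthrough gene RBM14-RBM4 with 5.23, PID1 with 5.01 and ZBTB7A with 4.68. The order is uncertain, since shallow libraries weigh as much as deep ones. The level of ALG8, for example, came from 4 tags in Control replicate 1, and its tags were 4, 10 and 5 in Alyref, 0, 5 and 1 in Chtop, 0, 0 and 0 in Nxf1 and 4, 2 and 0 in the Control. The 10 members with most tags held 5.69% of all member tags.

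Among these, recurrent bases made up much of the signal in PDE3A, PID1 and EYA4. Whether the tags at those bases came from the introns or from like sequence elsewhere was not tested. PDE3A held 79, 138 and 139 tags in Alyref, 67, 137 and 106 in Chtop, 23, 124 and 135 in Nxf1 and 19, 92 and 67 in the Control, with 83.5% of its 1126 tags at positions found in 6 or more libraries. The share was 53.4% of 777 tags in PID1, 46.0% of 589 in EYA4 and 34.1% of 123 in ARHGAP10, against none in AKT2, HOXB3, ZNF337 or ZBTB7A. EYA4 held 32, 78 and 77 tags in Alyref, 29, 76 and 37 in Chtop, 7, 85 and 111 in Nxf1 and 1, 25 and 31 in the Control. AKT2, by contrast, held 19, 108 and 102 tags in Alyref, 1, 61 and 49 in Chtop, 0, 23 and 32 in Nxf1 and 2, 8 and 3 in the Control, spread over 345 positions.

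The member with the most tags was EFNA5 (ENSG00000184349, chr5:106763211-107006189, minus strand), 242979 nt long. It held 6, 324 and 307 tags in Alyref, 3, 202 and 93 in Chtop, 4, 52 and 95 in Nxf1 and 6, 42 and 24 in the Control, at 1128 positions. Alyref replicate 1 and Chtop replicate 1 were low for their depth, with 6 and 3 tags against 42 in Control replicate 2, and no comparison passed: the log2 difference from the Control was -0.28 ± 0.62 (SE) in Alyref, 0.13 ± 0.62 in Chtop and -0.21 ± 0.64 in Nxf1 (edgeR, adjusted p of 0.96, 0.991 and 0.988). The tags in its first 1000 nt, most of them from Chtop as given above, were 4.84% of the intron's total.

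By gene function, 6 lists drawn up from textbook knowledge held between 59 and 84 members each, and none of their members passed in any of the 6 comparisons. Of the members tested, 4 belonged to chromatin regulators, 1 to RNA-binding proteins, 8 to protein kinases, 4 to small GTPases and their regulators, 2 to ubiquitin ligases and 5 to neuronal adhesion and axon guidance. In Chtop against Control, with a background of 3.24% called, the median log2 difference ran from -0.51 in the 2 ubiquitin ligases to 0.26 in the 8 kinases, against 0.019 over all members tested. In Alyref against Chtop it ran from -0.16 in the ubiquitin ligases to 0.17 in the RNA-binding proteins, against 0.033. With so few members tested these medians are single introns or nearly so.

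Levels differed more between lists than did the comparisons. First introns of the 60 chromatin regulators had a mean density of 0.546 CPM per kb in Alyref, 0.337 in Chtop, 0.680 in Nxf1 and 0.825 in the Control, against 0.265, 0.163, 0.338 and 0.424 over all members. The 84 kinases had 0.507, 0.263, 0.586 and 0.737. The 83 genes of neuronal adhesion and axon guidance, whose first introns had a median of 103128 nt, had 0.128, 0.0798, 0.156 and 0.207, the lowest of the 6 lists in each group. The order of the lists was thus the same in the Control as in the factors for these 3.

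Named chromatin members were JARID2 (an accessory subunit of Polycomb repressive complex PRC2) and EHMT1 (a histone H3 methyltransferase). JARID2 held 2, 76 and 70 tags in Alyref, 0, 44 and 9 in Chtop, 1, 9 and 29 in Nxf1 and 0, 6 and 4 in the Control, and its log2 difference between Alyref and Chtop was 0.26 ± 0.48 (SE; edgeR, adjusted p = 0.996). Alyref replicate 1 and Chtop replicates 1 and 3 were low for their depth. All 277 tags of EHMT1 also lay in another annotated gene on the strand. The RNA-binding protein tested was CELF2, a splicing regulator, with 2, 74 and 78 tags in Alyref, 4, 37 and 8 in Chtop, 1, 8 and 18 in Nxf1 and 3, 6 and 6 in the Control.

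The kinases named were ROR1 (a receptor tyrosine kinase-like protein), TAOK1 and TRIO (a guanine nucleotide exchange factor with a kinase domain). TRIO held 5, 135 and 122 tags in Alyref, 1, 65 and 17 in Chtop, 0, 21 and 29 in Nxf1 and 1, 10 and 3 in the Control, a difference of 0.97 ± 0.56 (SE) between Alyref and Control that did not pass (edgeR, adjusted p = 0.922). ROR1 held 403 tags. TAOK1 held 151, and 32.5% of the TAOK1 tags also lay in another annotated gene on the strand. Among regulators of small GTPases, DOCK4 (an exchange factor) held 329 tags, AGAP1 (an Arf GTPase-activating protein) 475 and ARHGAP10 123. The ubiquitin ligases ARIH1 and SMURF1 held 160 and 118, and the adhesion molecules SDK1 and PCDH7 538 and 386. In each of these, except ARHGAP10 with its recurrent base, 0% of tags lay at positions found in 6 or more libraries.

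The gradient of the neuronal list was the largest of the 6 for Chtop, at 3.27 ± 1.17 (SD, n = 3), against 1.23 ± 0.43 (SD, n = 3) over all members. It was 2.01 in Alyref, 1.76 in Nxf1 and -0.33 in the Control, which had 1 near tag in all. EFNA5 and ADGRL2 gave most of the 104 near tags of Chtop in this list. Without both, the gradient was 2.05 in Chtop on 21 near tags, 1.66 in Alyref, 1.08 in Nxf1 and 0.80 in the Control, with an SD of 0.86 in Chtop and 1.73 in the Control.

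At the length threshold, the members just over 10000 nt were MVP with 10004 nt and 5 tags over all libraries, URAD with 10010 nt and 1 tag, and ANKRD34C with 10012 nt and 1 tag. Just under it were PPP1R21 with 9997 nt and 6 tags, MORN3 with 9990 nt and 7 tags, and SMPDL3B with 9987 nt and 4 tags.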

How the data were processed

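The deposited values were counts: per the methods of the study, the authors removed phiX reads with bowtie 1.1.2, extracted barcodes with UMI-tools 0.5.3, aligned uniquely mapping reads to hg19 with STAR 2.4.2a, merged lanes and deduplicated, giving tags per crosslinked base. Introns came from GENCODE 44 mapped to GRCh37, a later annotation than that used for alignment, and each base was given to 1 intron, that with the nearest upstream 5′ splice site. Ratios were log2 with 0.5 tags added. Library measures were compared with two-sided exact permutation tests (84 splits for 3 against 6, smallest p 0.0238; smallest p 0.1 for 3 against 3), with Benjamini-Hochberg adjustment within families of 15. Tags per intron were tested with edgeR 4.0.16 (quasi-likelihood, TMM, filterByExpr, 12 libraries in 1 fit, adjusted p under 0.05) in R 4.3.3, with DESeq2 1.42.0 as an alternative. Scripts were tested on simulated data. Other tools were Python 3.11.15, numpy 2.4.6, pandas 2.3.3 and scipy 1.17.1. Members and lists were chosen with earlier results of these data known. Members named were the 10 of highest level, those called, up to 3 per list with the smallest p for Alyref against Chtop, those of the 4 highest crosslinked bases and those at the length threshold; others were named after their values were seen. Replicate numbers were checked as pairs: deviations of same-numbered libraries correlated from -0.12 to 0.43, over 0.1 in 4 of 18 pairs, with a median of 0.028. Those of libraries with different numbers correlated from -0.42 to 0.38, over 0.1 in 4 of 36 pairs, with a median of -0.032. Both ranges spanned 0, and the numbers were not used as pairs. Some results are not reported here.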

Additional observations from a re-analysis of the deposited data

Results flagged for a closer look

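In 2 comparisons every library of a factor moved to one side and every Control library to the other. The excess of the 5′ gradient in first over later introns was above 0 in all 3 Chtop libraries and below 0 in all 3 Control libraries, a difference of 0.84, although Chtop replicate 2 reached only 0.0055, and -0.0087 without the positions found in 6 or more libraries. With antisense density subtracted, the first intron gradient was below the later one in Chtop replicate 1 (0.62 and 0.80), Chtop replicate 2 (0.66 and 0.85) and Nxf1 replicate 1 (-0.28 and 0.44). The same held for Nxf1, with a difference of 0.78 from the Control. Each had an exact permutation p of 0.1, the smallest that 3 libraries against 3 allow, and the Control libraries rested on 16, 136 and 71 near tags in first introns. Leaving out each library in turn gave 0.66 to 1.02 for Chtop and 0.64 to 0.91 for Nxf1. The part of base composition, which changed with distance in first introns and not in later ones, was not tested beyond the count at uracil bases.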

How the results depend on the processing

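Of 305 settings of the library measures, 293 kept direction, as did 236 of 249 that left out 1 library. No comparison between groups had passed after adjustment, so for these the counts describe signs only. With introns holding no annotated exon, Nxf1 minus the other factors in gradient excess was -0.086, and in first to later density Alyref differed from the other factors by 0.065 and Nxf1 from the Control by -0.15. The gradient of Alyref against the other factors was 0.15 with introns weighted equally and 0.087 with antisense density subtracted. Without the 3 libraries of lowest strand ratio, chosen after seeing the data, the gradient of Nxf1 against the other factors was 0.015, the gradient excess of Chtop against them -0.11, the first against later gradient -0.094, and the sense to antisense ratio 0.49 for Alyref and 0.41 for Chtop against the Control, 0.29 for Chtop and -0.59 for Nxf1 against the other factors. None of these differences had passed a test, and the causes were not tested.

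Leaving out 1 library in turn, signs changed for Alyref against the other factors in share (-0.40 to 1.51 points), gradient (-0.44 to 0.060) and sense to antisense ratio (-0.23 to 1.11), for Alyref against the Control in that ratio (-0.90 to 0.49), and for Nxf1 against the Control in that ratio (-0.74 to 0.28) and in first to later density (-0.013 to 0.10). The called members ranged from 0 to 6 for Chtop against Control, 0 to 6 for Alyref against Chtop, 0 to 4 for Chtop against Nxf1 and 0 to 2 for Alyref against Nxf1. There were 0 without Chtop replicate 3 in all 3 Chtop comparisons, 0 for Alyref against Chtop without Alyref replicate 2 or 3, 0 for Chtop against Nxf1 without Nxf1 replicate 3, and 1 for Chtop against Control without Control replicate 3. With no filter on low counts, 0, 0 and 0 members were called for Chtop against Control, Alyref against Chtop and Chtop against Nxf1, and with all tags as library size 1, 0 and 0, the 1 being lower in Chtop. That scaling moved the median log2 difference of all introns tested to -1.64, 0.88 and -1.20, against 0.085, 0.029 and 0.058. DESeq2 called 2, 2 and 1. With the replicate block, edgeR called 0, 2, 0, 2, 0 and 1 members for Alyref, Chtop and Nxf1 against Control, Alyref against Chtop, Alyref against Nxf1 and Chtop against Nxf1, and no call changed. Depth limits the Control most: it had 223 near tags in all, and only 1 member reached 10 tags in its windows.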
